A study of Mus musculus with 6 samples.

Results

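The replication-dependent histone genes were taken as all genes of the deposited table with a single symbol starting with Hist1h, Hist2h, Hist3h or Hist4h and no pseudogene ending. They numbered 65 of 38854 genes. By type they were 5 genes of the linker histone H1, 19 of H2A, 18 of H2B, 10 of H3 and 13 of H4. The Hist1 cluster on chromosome 13 held 53, the Hist2 cluster on chromosome 3 held 10, and Hist3h2ba on chromosome 11 and Hist4h4 on chromosome 6 were the other two. RNA came from regulatory T cells (Treg) of Foxp3-GFP reporter mice, in which the transcription factor that defines Treg is marked by a fluorescent protein, 3 arrays of liver Treg and 3 of spleen Treg. For both organs, mice were injected with interleukin-2 bound to its antibody on 3 days and then left for 3 days. No group without the injections was analysed here. Whether liver and spleen Treg came from the same mice is not labelled. The labels give no age, do not say whether the arrays came from separate animals or from pools, and name both fluorescence-activated and magnetic sorting for the isolation. The p-values therefore rest on how far these arrays differ, a spread that may be technical, and the small number of arrays limits the precision. All values are log2 signals as normalized by the authors.

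Histones package DNA: H2A, H2B, H3 and H4 form the core of the nucleosome and H1 binds the linker between cores. Cells make most of them during S phase, from clustered, intronless genes whose mRNAs end in a stem-loop instead of a poly(A) tail. The stem-loop is bound by Slbp, the cluster genes are activated by Npat after cyclin E and Cdk2 phosphorylate it, and the mRNAs are destroyed when DNA synthesis stops. Interleukin-2 is a growth signal for Treg and drives their division. The labels state total RNA and do not say how cDNA was primed, which matters for mRNAs without a poly(A) tail. Genes of a type are near-identical in their coding parts, so probes can read several copies at once and the level of any single gene is uncertain. No gene is called more expressed than another here for that reason. Counts of histone genes given below are likewise not counts of independent measurements.

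Arrays of 1 organ were not alike. Spleen array 6 had the lowest signal of the 6 arrays in 47 of the 65 histone genes (72.3%), against 23.6% of all genes, and in no histone gene was it the highest. Spleen array 5 had the highest background, at 4.55 on average over the 23 background rows, against 4.09 to 4.34 on the other 5 arrays, and it was the highest array for 49% of all genes. Treg markers, summed on the linear scale over 8 genes such as Foxp3 and Il2ra, ran from 17701 to 19020 in liver and from 17979 to 19432 in spleen. Markers of some other cells were brighter in liver. The sum over 9 NK cell markers was 3524 to 4737 in liver and 2285 to 2913 in spleen, with 6 of the 9 not overlapping between organs, and the NK receptor Klrc1 passed the test at 1.57 (limma adjusted p = 0.03). The sum over 8 dendritic cell markers was 647 to 972 in liver and 459 to 566 in spleen, with 7 of the 8 not overlapping. The non-overlapping NK and dendritic cell markers were all higher in liver, where 3.11% of all genes were apart and higher. For the 2 CD8 T cell markers it was 681 to 709 in liver and 402 to 630 in spleen, with Cd8a apart at 0.97 and Cd8b1 overlapping. Macrophage markers went both ways, with Lyz2 at 1.39 (limma adjusted p = 0.066) and the red pulp macrophage factor Spic lower in liver at -0.97 (limma adjusted p = 0.042). The sum over 6 erythroid markers was 867 to 923 in liver and 772 to 893 in spleen and overlapped. Of 7 neutrophil markers, S100a8 was at or under background on all arrays. The part of such cells in the histone values was not tested, and a change in the share of dividing cells cannot be told apart from a change in RNA per cell in bulk samples.

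Liver Treg had more histone signal than spleen Treg across most of the genes, by a small margin, and no single gene passed the threshold. Of 65 genes 60 were higher on average in liver (92.3%), against 42.3% of all genes. The median difference was 0.20 on the log2 scale, or 1.15-fold, against -0.02 for all genes. With limma and an adjusted p threshold of 0.05 (Benjamini-Hochberg over all genes), 0 of the 65 were called, where 0.0206% of all genes were called, and the lowest adjusted p among them was 0.39, for Hist1h4n, which was under the background mean on 2 of the 3 spleen arrays. With arrays weighted by their estimated quality, 31 were called, but so were 9.09% of all genes. That fit gave liver array 2 a weight of 9.34 and spleen array 5 a weight of 0.188. Spleen array 6, the lowest array in most histone genes, had a weight of 2.35. At an unadjusted p under 0.05, 16 were higher and 0 lower in liver (24.6% higher), where 2.09% of all genes were higher and 1.68% lower. In 20 histone genes (30.8%) every liver array lay above every spleen array, against 3.11% of all genes, and in 0 every liver array lay below, against 3.09%. The mean over all 65 genes was 6.72, 6.78 and 6.65 on liver arrays 2, 3 and 7, against 6.64, 6.59 and 6.33 on spleen arrays 4, 5 and 6. The lowest liver array and the highest spleen array thus stood close together, and spleen array 6 stood furthest away. Without spleen array 6 the median difference was 0.10, and 8 genes had an unadjusted p under 0.05, where 1.35% of all genes were higher in liver. The shares of genes higher on average in liver also moved with single spleen arrays. Without spleen array 6, 47 of the 65 histone genes were higher on average, against 35.7% of all genes. Without spleen array 5, 62 of the 65 were, against 67.3% of all genes.

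**Figure D1:**
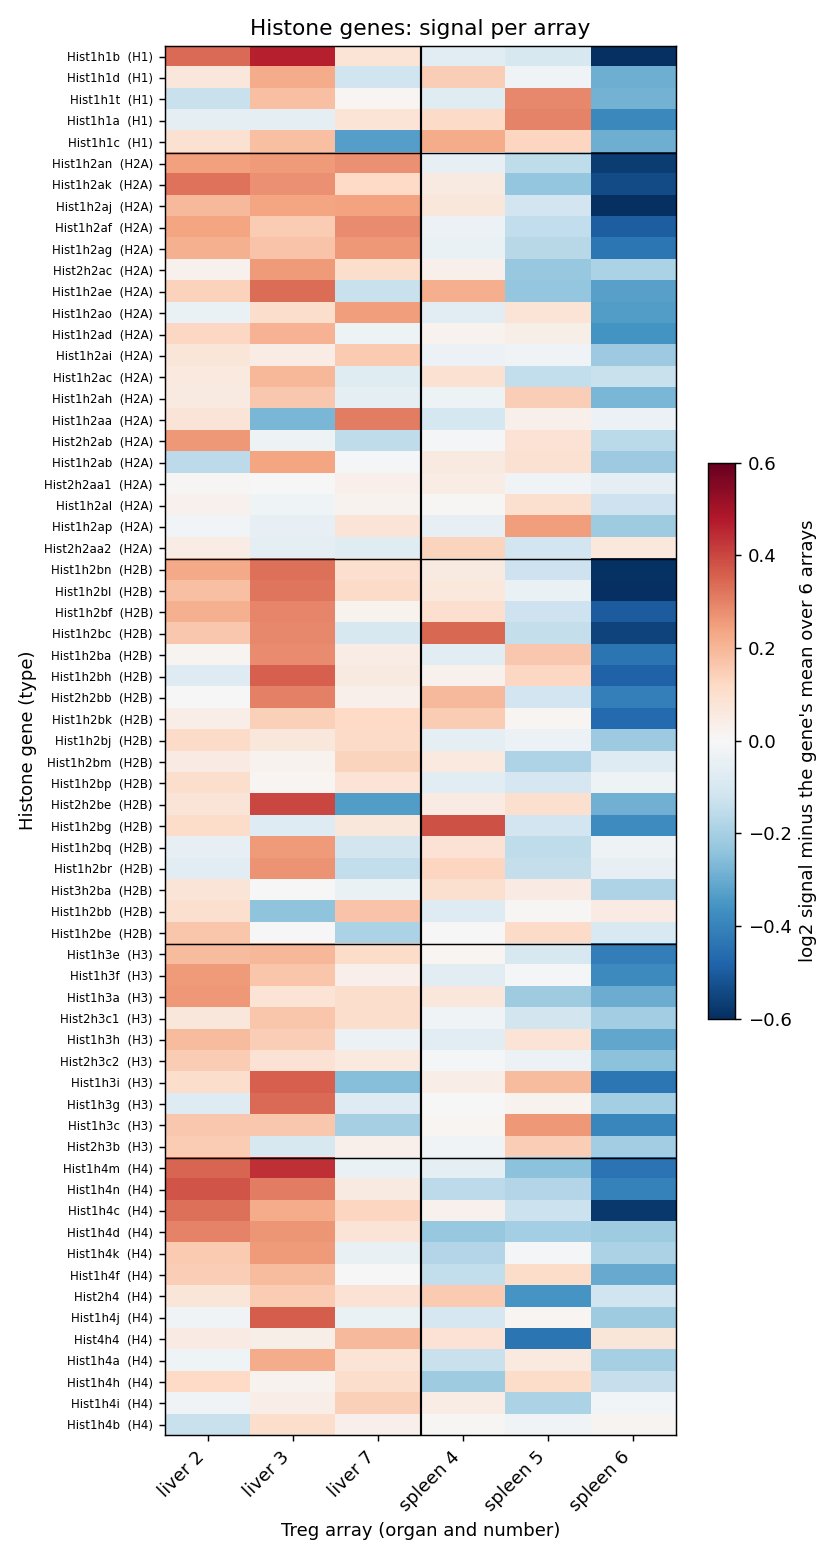
Signal of each of the 65 histone genes (rows, grouped by type and sorted by difference) on the 6 arrays (columns, liver left of spleen), as log2 signal minus the gene's mean over the 6 arrays; the colour scale ends at 0.6 in either direction. The column of spleen array 6 is mostly blue, with the lowest signal in 47 genes, and the liver columns are mostly red.

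The upstream sequences of 6 Hist1 genes are shown for the promoter words they hold or lack. Of the 65 genes 57 had a promoter window in RefSeq for assembly GRCm38.p6, and the 150 bases upstream of the start were searched on both strands for the word TATAAA of the TATA box, the CCAAT box, which has these letters, and the octamer ATTTGCAT, which Pou2f1 is known to bind in H2B promoters. None of these words contains another. The sequences shown belong to the gene with the largest difference in each type, and to Hist1h1c, an H1 gene whose difference was near 0. Of these, Hist1h4m was under the background mean on 2 of the 3 spleen arrays. Capitals mark matches, and each runs 5′ to 3′ up to the base before the start.
Hist1h1b (chr13:21780626-21780775, minus strand): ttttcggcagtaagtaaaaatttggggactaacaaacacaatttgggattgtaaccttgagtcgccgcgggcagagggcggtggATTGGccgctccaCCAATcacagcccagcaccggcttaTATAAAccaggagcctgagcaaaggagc
Hist1h1c (chr13:23738657-23738806, plus strand): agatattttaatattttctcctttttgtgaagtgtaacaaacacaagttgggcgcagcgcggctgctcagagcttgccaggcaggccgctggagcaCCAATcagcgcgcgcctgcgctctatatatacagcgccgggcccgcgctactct
Hist1h2an (chr13:21787249-21787398, minus strand): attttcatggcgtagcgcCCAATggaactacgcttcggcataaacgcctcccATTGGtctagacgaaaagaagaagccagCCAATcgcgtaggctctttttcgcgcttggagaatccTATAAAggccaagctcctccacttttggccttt
Hist1h2bn (chr13:21753926-21754075, plus strand): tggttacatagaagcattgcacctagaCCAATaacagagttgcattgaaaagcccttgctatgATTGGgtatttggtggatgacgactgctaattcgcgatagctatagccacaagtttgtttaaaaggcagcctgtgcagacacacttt
Hist1h3e (chr13:23562386-23562535, minus strand): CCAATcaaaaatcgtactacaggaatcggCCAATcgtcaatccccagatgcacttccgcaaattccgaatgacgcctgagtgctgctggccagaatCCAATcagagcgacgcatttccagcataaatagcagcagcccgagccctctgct
Hist1h4m (chr13:21811596-21811745, plus strand): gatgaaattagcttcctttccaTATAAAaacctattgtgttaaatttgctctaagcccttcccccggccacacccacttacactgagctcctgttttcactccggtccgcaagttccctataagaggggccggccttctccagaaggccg
A CCAAT box was found in 46 of 57 windows (80.7%), against 24.5% of all 32851 windows. It was in all 16 windows of H2A, all 16 of H2B and all 5 of H1, in 6 of 8 of H3 and in 3 of 12 of H4. The TATA word was in 21 of 57 (36.8%), against 7.57% of all windows. The octamer was in 4 of 16 windows of H2A and 6 of 16 of H2B, in 0 of the other 25 windows, and in 0.998% of all windows. Windows of H2A and H2B genes that face each other can overlap, so their matches may not be independent. Hist1h1b and Hist1h2an hold both a CCAAT and a TATA word, Hist1h1c, Hist1h2bn and Hist1h3e hold CCAAT without the TATA word, and Hist1h4m holds a TATA word but no CCAAT word. The TATA word of Hist1h4m lies far upstream of where Hist1h1b and Hist1h2an hold theirs, and none of the 6 windows holds the octamer. In H4 the share with CCAAT, 25%, was near that of all windows. These words are a description of the windows, not of bound sites.

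All core histone types had a positive median difference, and that of H1 was near 0. Among the types, the arrays of the organs lay furthest apart in H4. Its 13 genes averaged 6.34, 6.41 and 6.27 on liver arrays 2, 3 and 7, against 6.14, 6.10 and 6.00 on spleen arrays 4, 5 and 6. The median difference of H4 genes was 0.21, and 0.20 without spleen array 6. H2A genes had a median of 0.18 and array means of 6.97, 6.98 and 6.95 in liver against 6.89, 6.83 and 6.59 in spleen, which did not overlap. H3 genes had a median of 0.20, with liver means of 6.14, 6.16 and 5.98 against spleen means of 5.99, 6.02 and 5.69. H2B genes had a median of 0.17, with liver means of 7.29, 7.37 and 7.21 against spleen means of 7.29, 7.17 and 6.91. In H3, liver array 7 lay below spleen arrays 4 and 5, and in H2B, liver array 7 lay below spleen array 4. Without spleen array 6 the medians were 0.09 for H2A, 0.11 for H3 and 0.055 for H2B. H1 genes had a median of 0.04, and -0.09 without spleen array 6. The H1 median was 0.275 with the lower 50% of genes left out, which leaves only Hist1h1b and Hist1h1c, and 0.265 with array weights. Whether types differed from each other was not tested.

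**Figure D2:**
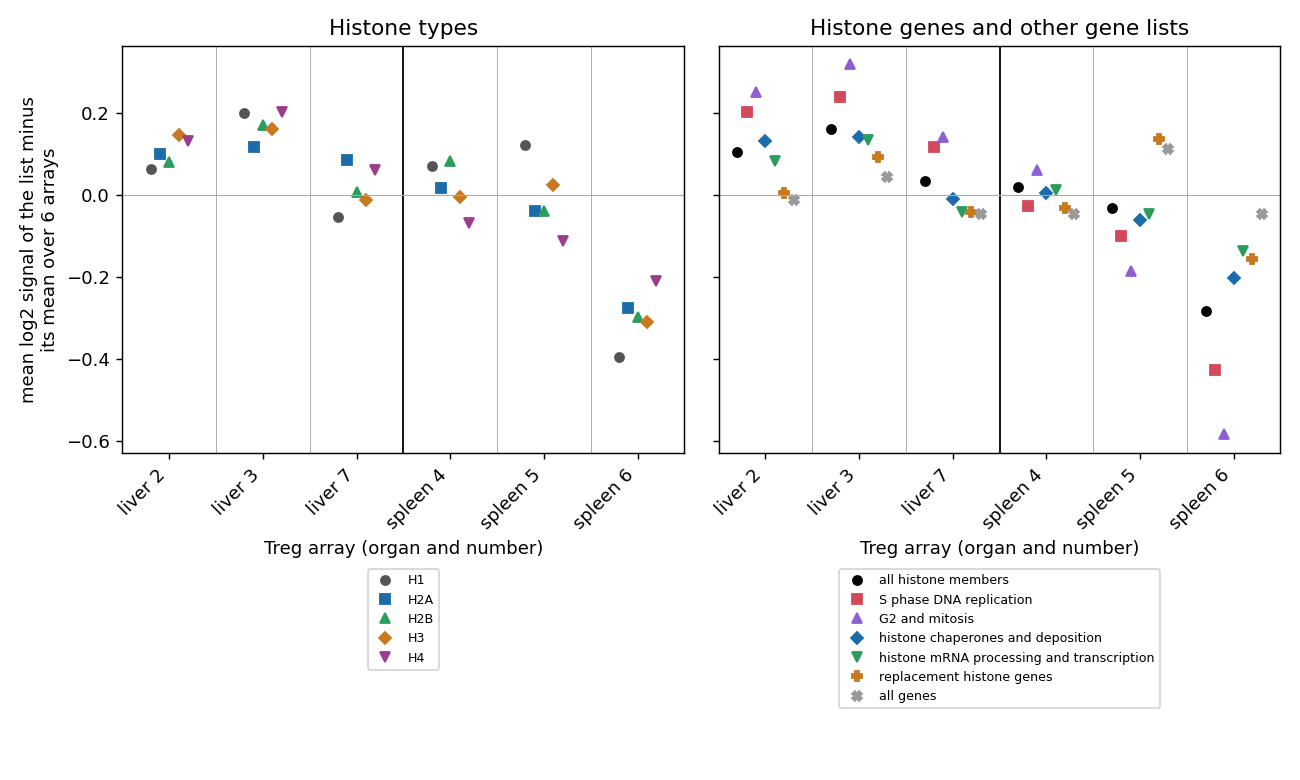
Mean log2 signal per array of each histone type (left panel) and of all 65 histone genes with other gene lists (right panel), each minus its own mean over the 6 arrays; 1 symbol is 1 list on 1 array, liver left of the black line and spleen right of it. Spleen array 6 is lowest for every histone type, and among the types only H2A and H4 have all liver symbols above all spleen symbols.

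Among the linker histones, Hist1h1b, which encodes H1.5, stood apart from the other four. Hist1h1b measured 7.22, 7.35 and 6.97 on liver arrays 2, 3 and 7, against 6.82, 6.79 and 6.16 on spleen arrays 4, 5 and 6. All liver arrays lay above all spleen arrays, and spleen array 6 was far below the rest. The difference was 0.59 (SE 0.17, 95% confidence interval 0.22 to 0.97, limma adjusted p = 0.58), or 1.51-fold, and 0.38 without spleen array 6. Hist1h1c, which encodes H1.2, a linker histone known to be made also outside S phase, measured 8.94, 9.03 and 8.51 in liver against 9.07, 8.98 and 8.56 in spleen. The groups overlapped, with liver array 7 and spleen array 6 the lowest, and the difference was -0.04 (95% confidence interval -0.40 to 0.32). Hist1h1d, for H1.3, differed by 0.11 and lay near background, as did the testis gene Hist1h1t at 0.04, which was under the background mean on all 6 arrays. Hist1h1a, for H1.1, differed by -0.02.

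Among H2A genes 5 had differences of 0.43 to 0.52, and the others ran from -0.06 to 0.26. Hist1h2an measured 10.14, 10.15 and 10.17 on the liver arrays, against 9.84, 9.74 and 9.32 on the spleen arrays. The liver arrays lay close together, at 10.15 ± 0.015 in liver against 9.64 ± 0.28 in spleen (SD, n = 3). The difference was 0.52 (SE 0.14, limma adjusted p = 0.45), or 1.43-fold, and 0.36 without spleen array 6. Hist1h2ak differed by 0.48, Hist1h2aj by 0.45, Hist1h2af by 0.45 and Hist1h2ag by 0.43, all with liver arrays above spleen arrays. RefSeq lists Hist1h2aj as a pseudogene, as it does Hist1h2al, which differed by 0.02. Only Hist1h2ai, at 0.18, was a further H2A gene whose groups did not overlap. Of all genes, 3.11% had all liver arrays above all spleen arrays. Hist2h2aa1 measured 9.09, 9.08 and 9.12 in liver against 9.13, 9.07 and 9.03 in spleen, a difference of 0.02 (95% confidence interval -0.20 to 0.25). Its arrays of both organs lay intermixed. Hist2h2aa2, with a difference of -0.06, was the only H2A gene lower on average in liver. The testis gene Hist1h2aa differed by 0.07.

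Of 18 H2B genes 4 had all liver arrays above all spleen arrays, where 3.11% of all genes did. Hist1h2bn measured 10.27, 10.37 and 10.14 on the liver arrays, against 10.095, 9.92 and 9.45 on the spleen arrays. The difference was 0.44 (SE 0.16, limma adjusted p = 0.86), or 1.36-fold, and 0.25 without spleen array 6. Hist1h2bl measured 10.51, 10.65 and 10.45 in liver against 10.39, 10.29 and 9.69 in spleen, a difference of 0.41 that was 0.19 without spleen array 6. In both genes the gap between the lowest liver and the highest spleen array was small beside the distance of spleen array 6. Hist1h2bj and Hist1h2bp, at 0.20 and 0.13, were the other two without overlap. Hist1h2bc measured 8.23, 8.36 and 7.98 in liver against 8.41, 7.93 and 7.51 in spleen. Values of Hist1h2bg were 8.69, 8.50 and 8.64 in liver against 8.96, 8.46 and 8.20 in spleen. Spleen array 4 was the highest of all 6 arrays in both. Hist1h2be, at -0.02, was the only H2B gene lower on average in liver, Hist3h2ba differed by 0.03 (95% confidence interval -0.23 to 0.28) and the testis gene Hist1h2ba by 0.23.

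**Figure D3:**
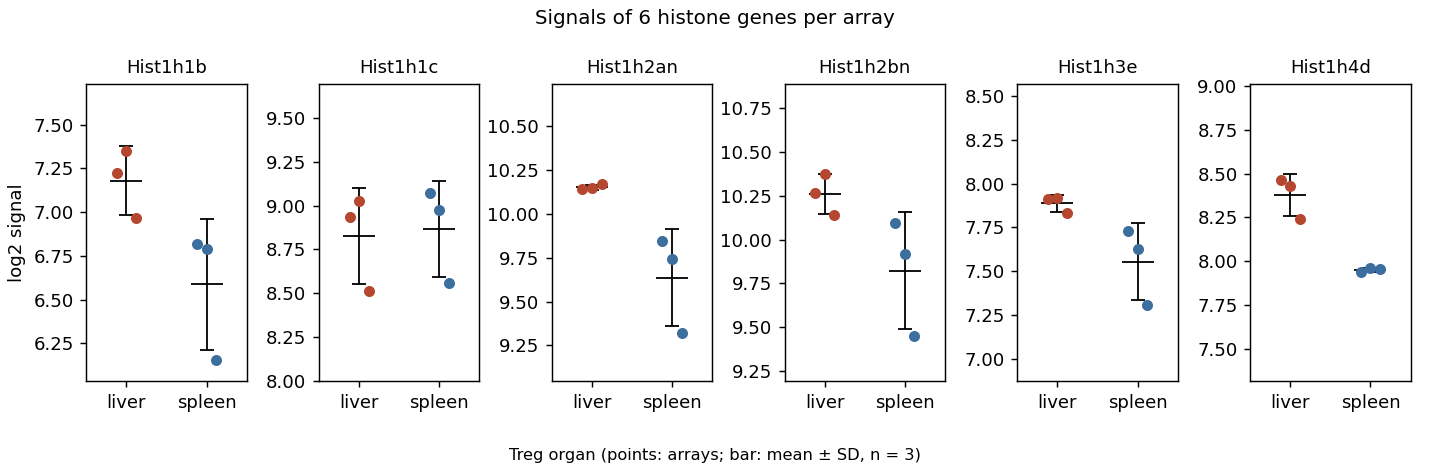
Log2 signal of Hist1h1b, Hist1h1c, Hist1h2an, Hist1h2bn, Hist1h3e and Hist1h4d on each array (points), with mean and SD (black bars, n = 3), liver left of spleen; every panel spans the same range of log2 units around the gene's mean. The organs are apart in all panels but that of Hist1h1c, and the lowest spleen point is array 6 except for Hist1h4d.

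All 10 H3 genes were higher on average in liver, with differences of 0.06 to 0.33. In 5 all liver arrays lay above all spleen arrays, where 3.11% of all genes did. Without spleen array 6, Hist1h3c, Hist1h3i and Hist2h3b were lower on average in liver, at -0.096, -0.046 and -0.034. The other H3 genes stayed higher. Hist1h3e measured 7.91, 7.92 and 7.83 on the liver arrays, against 7.73, 7.63 and 7.31 on the spleen arrays, a difference of 0.33 (SE 0.13, limma adjusted p = 1). Hist1h3f differed by 0.30 and Hist1h3a by 0.30, with the organs apart in each. In the Hist2 cluster, Hist2h3c1 differed by 0.23 and Hist2h3c2 by 0.20 without overlap, and Hist2h3b by 0.06 with overlap. Hist1h3g and Hist1h3c were under the background mean on all 6 arrays, so no level above background was measured for them.

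H4 pairs with H3 in the nucleosome core, and 4 of its 13 genes had all liver arrays above all spleen arrays, where 3.11% of all genes did. Of the 4, Hist1h4m and Hist1h4n were under the background mean on 2 of the 3 spleen arrays. Hist1h4d measured 8.46, 8.43 and 8.24 on the liver arrays, against 7.94, 7.96 and 7.95 on the spleen arrays. The spleen arrays lay close together, with an SD of 0.012, and every liver array lay above them. The difference was 0.43 (SE 0.11, 95% confidence interval 0.19 to 0.67, limma adjusted p = 0.40), or 1.34-fold, and it was also 0.43 without spleen array 6. Hist1h4n measured 4.78, 4.72 and 4.46 in liver against 4.25, 4.23 and 4.00 in spleen, with a difference of 0.49 (SE 0.13, limma adjusted p = 0.39). Hist1h4m, which lies beside it on the chromosome, measured 4.78, 4.87 and 4.39 in liver against 4.37, 4.18 and 3.985 in spleen, a difference of 0.50. Both were above the background mean on all 3 liver arrays and on 1 of 3 spleen arrays, so their differences are taken against values mostly not above background. Hist1h4c measured 8.10, 7.99 and 7.895 in liver against 7.79, 7.64 and 7.19 in spleen, a difference of 0.46. The groups overlapped in the other 9 H4 genes, with differences of up to 0.25 for Hist1h4k. Hist1h4b was under the background mean on all 6 arrays, so no level above background was measured for it. Others were Hist1h4h at 0.16, and Hist2h4 and Hist4h4, at 0.21 and 0.19, in which spleen array 5 and not array 6 was the lowest.

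**Figure D4:**
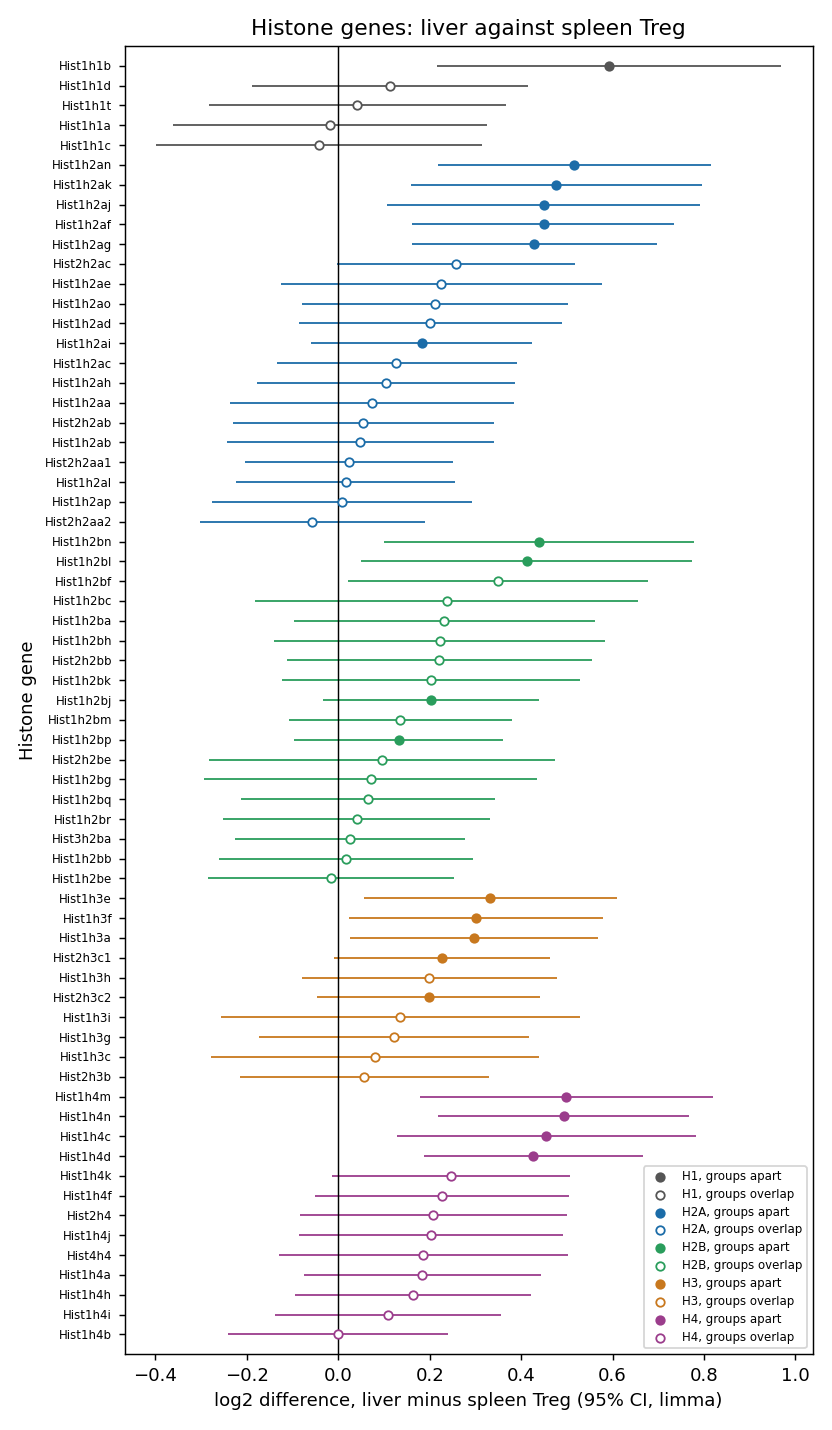
Difference in log2 signal between liver and spleen Treg for each histone gene, with its 95% confidence interval from limma; filled points are genes whose liver arrays all lie above the spleen arrays, open points genes whose groups overlap. The points run from -0.06 for Hist2h2aa2 to 0.59 for Hist1h1b, and 60 of 65 lie right of 0.

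Brighter and dimmer genes, and the parts of the cluster, are given side by side here. Of the 43 genes whose mean over the 6 arrays was above the median of all genes, 17 had groups that did not overlap, with a median difference of 0.20, where 4.61% of all genes of that brightness had all liver arrays higher. Of the 22 dimmer genes 3 did, with a median of 0.16, where 1.6% of all dimmer genes did, and 9 genes were under the background mean on at least 1 array. RMA is known to compress differences of dim genes. The Hist1 genes had a median difference of 0.20, with 18 of 53 not overlapping, and the Hist2 genes 0.15, with 2 of 10. The widest gap was sought between the starts of Hist1 genes with a promoter window, so genes without a window took no part in finding it. In RefSeq's order, the 23 Hist1 genes before this gap, from Hist1h2bl to Hist1h2bj, had a median of 0.20 with 12 not overlapping. The 29 genes after it, from Hist1h4h to Hist1h2al, had a median of 0.16 with 6 not overlapping. All non-overlapping genes of these clusters and blocks were higher in liver, where 3.11% of all genes were apart and higher. Whether the clusters or blocks differed was not tested.

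H2A and H2B genes often lie head to head with a shared upstream region, and partners were alike in whether the organs overlapped in all pairs found. Among the 57 members with a promoter window, 9 such pairs had starts within 500 bases, and members without a window could not be paired. In 4 pairs both partners had all liver arrays above all spleen arrays, in 5 neither had, and in 0 only one had. Of all genes, 3.11% had all liver arrays above. The 4 pairs were Hist1h2ak with Hist1h2bn at 0.48 and 0.44, Hist1h2an with Hist1h2bp at 0.52 and 0.13, Hist1h2ag with Hist1h2bj at 0.43 and 0.20, and Hist1h2ai with Hist1h2bl at 0.18 and 0.41. In the 5 other pairs the differences ran from 0.07 to 0.35, and both partners were higher on average in liver in all 9. The pairing was noticed after the values were seen and was not tested.

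**Figure D5:**
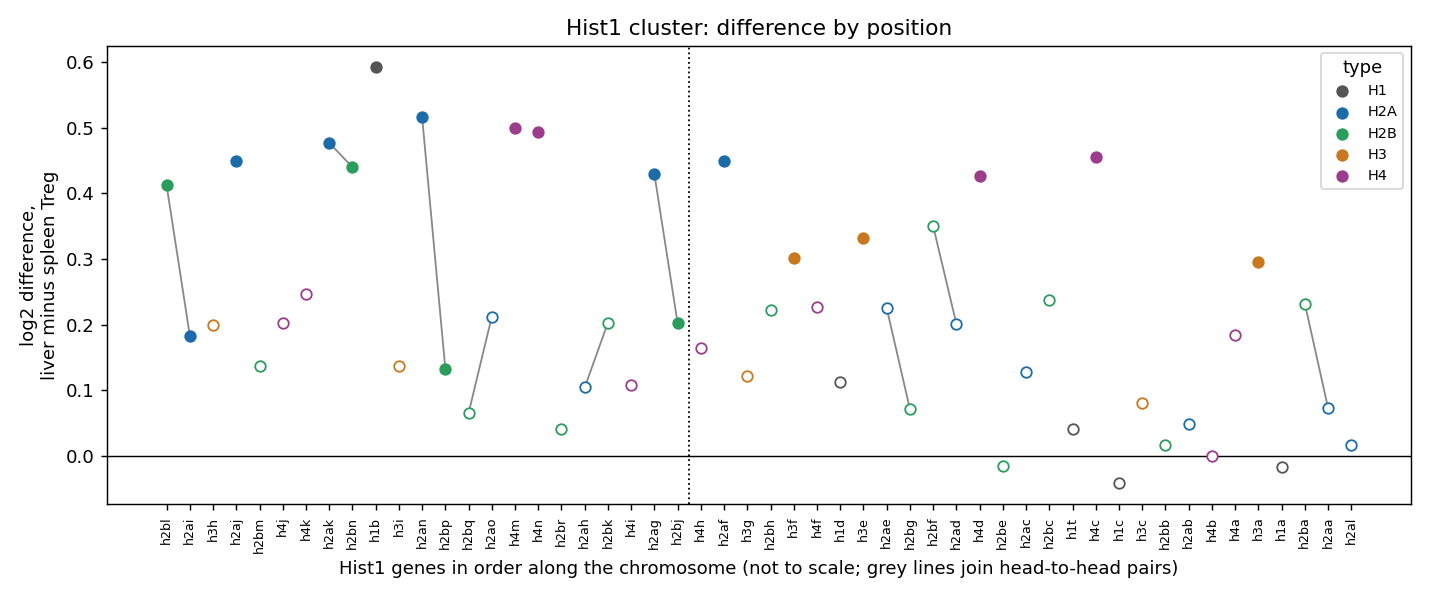
Difference in log2 signal between liver and spleen Treg for 52 Hist1 genes in their order along the chromosome (not to scale), coloured by type. Filled points are genes whose groups did not overlap and grey lines join the 9 head-to-head pairs. The dotted line marks the widest gap between genes with a promoter window. Filled points are 12 left of the gap and 6 right of it, and each grey line joins points of the same kind.

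Genes of DNA replication were also higher on average in liver, and replacement histone genes as a list were not. Of 39 genes of DNA replication none passed over all genes, 28 were higher in liver at an unadjusted p under 0.05 and 29 did not overlap, all of them higher, where 2.09% and 3.11% of all genes met these criteria. Their median difference was 0.39, against 0.20 for the histone genes. The primase subunit Prim1 measured 8.95, 9.04 and 8.87 in liver against 8.60, 8.21 and 7.87 in spleen, a difference of 0.73 (SE 0.16, limma adjusted p = 0.35). The replicative helicase subunit Mcm5 differed by 0.50 and the ribonucleotide reductase subunit Rrm2 by 0.65, while the sliding clamp Pcna, at 0.06, overlapped. Of 26 genes of G2 and mitosis, none passed, 23 had an unadjusted p under 0.05 and 19 did not overlap, with a median of 0.48. Mki67, the proliferation antigen, differed by 0.46 and the checkpoint kinase Bub1b by 0.70. With array weights, 14 of the 24 context genes named by rule were called, Prim1, Rrm2, Mcm5, Mki67, Bub1b, Ccne1, Chaf1a and Asf1b among them. The others called were the replacement histone genes H2afv, H2afx and Cenpa, and Rb1, Chaf1b and Casp8ap2. The fit called 9.09% of all genes. Prim1, Bub1b, Ccne1, H2afv and Rb1 were named for the largest difference of their list, so the 2 shares cannot be compared. The S phase and mitosis lists share the low spleen array 6, and without it their medians were 0.26 and 0.33. The 14 genes of quiescence and cell cycle inhibition had a median of 0.005, and none had an unadjusted p under 0.05. The organs were apart with liver lower in 2 of them, Btg1 at -0.185 and Foxo1 at -0.16, and with liver higher in 0. Of all genes, 3.09% were apart with liver lower and 3.11% with liver higher. The largest difference in size was that of Rb1, at 0.26. Whether the histone genes differed less than the S phase list was not tested.

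Among 24 genes that switch on, process or degrade histone mRNAs none passed, and the median was 0.09. At an unadjusted p under 0.05, 3 were higher in liver and 0 lower, where 2.09% and 1.68% of all genes were. In 5 all liver arrays lay above all spleen arrays, where 3.11% of all genes did. In 1 they lay below, a share (1 of 24) near the 3.09% of all genes. The 3 at an unadjusted p under 0.05 were Ccne1 and Ccne2, the cyclins E that act with Cdk2 on Npat, and the decapping enzyme Dcp2. Ccne1 measured 7.62, 7.64 and 7.50 in liver against 7.10, 7.17 and 7.11 in spleen, a difference of 0.46 (SE 0.11, limma adjusted p = 0.36). Its 3 spleen arrays lay together, with array 6 not the lowest. Ccne2 differed by 0.39 and Dcp2 by 0.34, and the other two genes that were apart and higher were the exonuclease Eri1, at 0.17, and the U7 snRNP component Lsm10, at 0.08. The stem-loop binding protein Slbp measured 8.65, 8.68 and 8.54 in liver against 8.73, 8.54 and 8.25 in spleen and overlapped. Npat, at 0.13, its partner in the histone locus body Casp8ap2, at 0.19, the U7 snRNP component Lsm11, at 0.08, and the processing factor Zfp473, at -0.01, overlapped too. Pou2f1 was the gene of this list whose liver arrays all lay below the spleen arrays, at -0.18 (95% confidence interval -0.42 to 0.05).

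The 24 histone chaperones and deposition factors had a median of 0.15, with none past the threshold. The list holds those that act at replication forks and those that act outside replication such as Hira and Daxx. At an unadjusted p under 0.05, 4 were higher in liver, and 8 did not overlap, all of them higher. Of all genes, 2.09% and 3.11% met these criteria. Chaf1a, the large subunit of the CAF-1 assembly factor, measured 7.74, 7.58 and 7.51 in liver against 7.21, 7.34 and 6.84 in spleen, a difference of 0.48 (SE 0.14, limma adjusted p = 0.58). Asf1b, the S phase chaperone of H3 and H4, differed by 0.47, and its overlap-free groups were 8.28, 8.42 and 8.25 in liver against 8.05, 8.09 and 7.40 in spleen. Chaf1b, at 0.18, and the H3 and H4 chaperone Nasp, at 0.12, overlapped.

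The 14 replacement histone genes, many but not all of which are transcribed throughout the cell cycle or in the germ line, had a median of -0.025. None had an unadjusted p under 0.05. H2afz, the gene of H2A.Z, measured 11.75, 11.765 and 11.705 in liver against 11.915, 11.78 and 11.81 in spleen, a difference of -0.095 (95% confidence interval -0.325 to 0.14). It was the gene of this list whose liver arrays all lay below the spleen arrays, where 3.09% of all genes did. The H3.3 genes H3f3a and H3f3b differed by -0.06 and -0.04 and the linker histone H1f0 by -0.05, each with overlapping groups. H2afv differed by 0.24, the gene of the DNA damage histone H2afx by 0.23 and that of the centromeric histone Cenpa by 0.18. The groups overlapped in these 3 as well, and H2afx was lowest on spleen array 6, at 7.28 against 7.69 to 7.91 on the other 5 arrays. With array weights H2afv, H2afx and Cenpa were called, at 0.41, 0.437 and 0.345, in a fit that called 9.09% of all genes. The median of this list was 0.11 without spleen array 5.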

How the data were processed

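RNA of 3 liver and 3 spleen Treg samples was measured on Affymetrix arrays, named Mouse Gene ST 2.0 per the labels' protocols and MTA-1_0 per the file headers. The deposited values are log2 signals, made by the authors with RMA. The submitters' processing notes name Expression Console as the software. For the build, annotation release and software version, the sources used here give nothing. Both deposited tables held identical values.

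Of 72688 rows 39514 had 1 symbol, and the row with the highest mean represented each of 38854 genes. Of 65 histone genes, 2 had several rows. Liver was compared with spleen with lmFit and eBayes of limma 3.58.1 under R 4.3.3. Two-sided p-values were adjusted by Benjamini-Hochberg across the whole table, and the threshold was 0.05. No covariate entered, because no batch or pairing is labelled. The procedure was tested on simulated data. A count of genes whose groups do not overlap means that all arrays of 1 organ lie on one side of the other's. Background rows are the 23 control rows whose names mark them as background. RefSeq (GRCm38.p6) matched 64 of the 65 genes by older names. Of list genes, Rnu7, Hba-a1 and Hbb-b1 were not matched.

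The members and lists were chosen with earlier results of these data known. The text names, for each type, the 2 genes with the highest mean, the 2 largest positive differences and the lowest difference, single-member clusters, a fixed set of context genes and the largest difference of each list, and other genes chosen after their values were seen. Cell type lists not given in the report had medians of 0.19 for B cells, 0.03 for plasma cells, -0.09 for neutrophils, -0.01 for hepatocytes and -0.05 for endothelial cells.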

Additional observations from a re-analysis of the deposited data

How the results depend on the processing

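No paired analysis was made, because the labels give no pairing. The array numbers of liver (2, 3 and 7) and spleen (4, 5 and 6) do not tell whether arrays share mice. Alternatives were filters on dim genes, array medians, quantile or cyclic loess normalization, averaged rows, an intensity trend with robust moderation, array weights and leaving out each array. None of the histone genes was called by limma under any of them but array weights, with 31 called. Weights also gave 46 genes at an unadjusted p under 0.05 and higher in liver, where 17.8% of all genes were, against 2.09% without weights. They gave medians of 0.265 for H1, 0.43 for H3, 0.258 for chaperones and 0.559 for S phase genes. With the lower 50% of genes left out, the H1 median was 0.275. Leaving out 1 array gave 8 (without spleen array 6) to 23 (without spleen array 4 or 5) genes higher in liver at an unadjusted p under 0.05. Of all genes, 1.35% were so without array 6, 2.73% without array 4 and 3.6% without array 5. Groups were apart and higher in liver in 20 (without spleen array 6) to 31 (without spleen array 4) genes. Of all genes 4.77% and 6.79% were, against 3.11% with all 6 arrays. Groups were apart and lower in 0 to 1 (without spleen array 5 or 6), where 5.19% and 8.84% of all genes were. Replacement histone medians ran from -0.0438 to 0.106 (without spleen array 5). The causes were not tested. The weights were largest for liver array 2 and spleen array 6, at 9.34 and 2.35. Weights also called 13 of 21 histone and 14 of 24 other genes named by rule. Part of both sets was named for the size of its differences, so these counts cannot be set against the share of all genes. In a fit without weights, Prim1 passed when spleen array 4 was left out, at 0.911 (limma adjusted p = 0.046). Hist1h4b, under background on all arrays, has no interpretable sign. Differences near 0 that turned sign, none of them called, were as follows. By leaving out 1 array, Hist1h1c ran from -0.198 to 0.114, Hist1h1d from -0.00619 to 0.215, Hist1h2be from -0.103 to 0.0766, Hist2h3b from -0.034 to 0.144, Hist1h4b from -0.0533 to 0.0651, Hist3h2ba from -0.0603 to 0.0799, Slbp from -0.0126 to 0.229, Zfp473 from -0.0616 to 0.0369 and H1f0 from -0.124 to 0.031. With weights, values were 0.265 for Hist1h1c, 0.198 for Hist1h2be, -0.0138 for Lsm11 and 0.0571 for H1f0. With array medians, quantile and loess in turn, Hist1h2be had 0.00749, 0.0091 and 0.0076, Hist1h4b 0.0218, 0.0324 and 0.025, and Zfp473 0.0115, 0.0144 and 0.0232. With averaged rows Hist1h4b had 0.0301. Genes under the background mean have values that signal limits.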
